A study of Mus musculus with 28 samples.

Results

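Long noncoding RNAs are transcripts that are not translated, and many act in the nucleus as scaffolds, as hosts of smaller RNAs or on nearby genes. Of these, 8 known in brain were followed here (Malat1, Neat1, Meg3, Miat, Rian, Mirg, Rmst and Pvt1), each taken as the transcript cluster that the array annotation lists under its symbol, brightest over the 28 arrays where there were several. Each of the 8 had 1 such transcript cluster, so 8 of the 65956 tested were used. RefSeq classes 8 of the 8 as long noncoding genes.

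Malat1 lies in nuclear speckles, the bodies that store splicing factors, and its 3′ end is cut out by the tRNA processing enzyme RNase P. Neat1 is the scaffold on which another nuclear body, the paraspeckle, is built, and its long isoform is needed for that. Meg3, Rian and Mirg are transcribed from the maternal chromosome within the imprinted Dlk1-Dio3 domain and carry small nucleolar RNAs and microRNAs in their introns and exons. Miat, also called Gomafu, is a nuclear RNA of neurons that binds splicing factors, Rmst is a neural RNA that binds the transcription factor Sox2, and Pvt1 is the neighbour of the Myc oncogene.

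The arrays measured cortical tissue of mice at 12 to 15 weeks of age, 7 in each of 4 groups. Mice labelled as knockout (KO) for Rbm5, which encodes a splicing regulator, were compared after controlled cortical impact (KO CCI) or sham (KO sham) with wild type mice (WT) after the same procedures (WT CCI, WT sham). The impact (6 m/s, 1.2 mm deep) followed a craniotomy over the left parietal cortex, whereas sham mice had anaesthesia alone, so craniotomy and impact cannot be told apart, and tissue was taken after 48 h. Each group held 4 females and 3 males except KO sham, with 3 females and 4 males. The labels do not say whether the deletion was in every cell.

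Values are log2 signal, and changes are log2 differences between group means from limma with sex as a term, with a call at a Benjamini-Hochberg adjusted p under 0.05 over all 65956 transcript clusters. Rbm5 lay between 9.71 and 9.80 in KO CCI and between 9.66 and 9.84 in KO sham, against 10.59 to 10.79 in WT CCI and 10.70 to 10.82 in WT sham, so no knockout array overlapped a wild type array. Probes outside the deleted part of a gene can still give signal, and the labels do not say which part was deleted. Markers of cortical excitatory neurons were present on every array, with a mean log2 signal of 10.79 to 11.48 over 11 genes. Markers of striatum or choroid plexus were high on 7 arrays (KO CCI replicates 22 and 40, WT CCI replicates 13, 14, 16 and 35 and WT sham replicate 25), and values of Miat and Mirg are given with and without them.

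After injury, Neat1 rose in both genotypes, Rian and Miat fell in both, Mirg fell in knockout and Pvt1 rose in wild type, while Malat1, Meg3 and Rmst were not called in either. This made 4 of 8 called in each genotype, 1 higher and 3 lower in knockout and 2 higher and 2 lower in wild type. Of all transcript clusters, 16.7% were called in knockout (8.43% higher, 8.27% lower) and 16.8% in wild type (8.86% higher, 7.96% lower). The groups did not overlap for Neat1 and Rian in either genotype, or for Pvt1 in wild type, which was so for 6.38% of all transcript clusters in knockout (3.51% higher, 2.87% lower) and 7.26% in wild type (4.44% higher, 2.82% lower). No member was called between the genotypes.

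**Figure D1:**
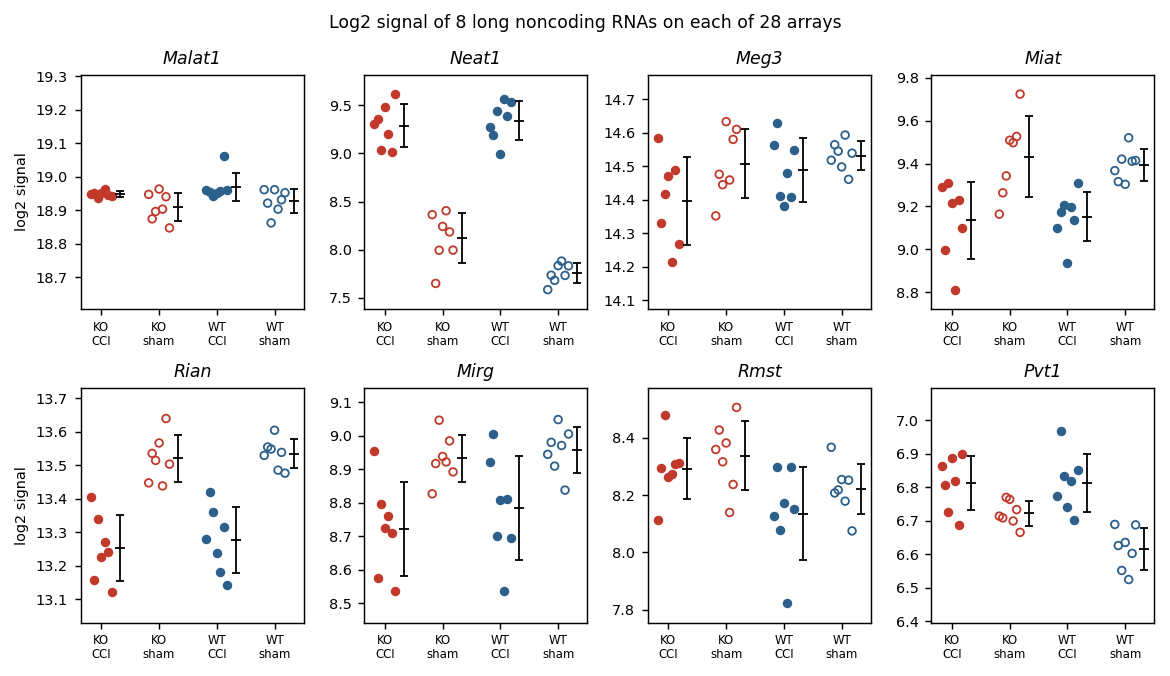
Log2 signal (vertical axis, scaled for each RNA) on every array, filled circles for CCI and open circles for sham, knockout in red and wild type in blue, with bars for the mean and SD of 7 arrays. For Neat1 the lowest CCI array (8.99) lies above the highest sham array (8.41), and for Rian the highest CCI array (13.42) lies below the lowest sham array (13.44).

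Neat1 had the largest injury change of the 8. RefSeq lists 2 transcripts for it and the array 1 transcript cluster, so its isoforms cannot be told apart here. In KO CCI its log2 signal was 9.02 at the lowest, 9.31 at the median and 9.62 at the highest, against 7.65, 8.19 and 8.41 in KO sham. In WT CCI it was 8.99, 9.39 and 9.57, against 7.59, 7.74 and 7.88 in WT sham. All 7 injured arrays thus lay above all 7 sham arrays in each genotype, and the 2 injured groups covered nearly the same range. Neat1 rose 2.25-fold in knockout (log2 change 1.17, SE 0.11, adjusted p = 8.14e-09) and 3.001-fold in wild type (log2 change 1.59, SE 0.11, adjusted p = 1.6e-11). By size it ranked at 270 in knockout and at 161 in wild type among the 65956 changes.

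Among sham arrays, KO sham spread over an SD of 0.26 and WT sham over an SD of 0.10, and 6 of 7 KO sham arrays lay above the highest WT sham array. Between KO sham and WT sham the Neat1 difference was 0.36 (SE 0.11, limma adjusted p = 0.106, unadjusted p = 0.00236), and so was not called. Over the 28 fits that left out 1 array, this difference ran from 0.32 to 0.44, with a limma adjusted p from 0.0262 to 0.223. Only the fit without KO sham replicate 10, the lowest of its group at 7.65, called it (0.44, limma adjusted p = 0.0262). Leaving out the lowest array of the higher group widens a difference by design. After injury the difference was -0.053 (SE 0.11, adjusted p = 0.926). The injury change in knockout minus that in wild type was -0.42 (SE 0.15, limma adjusted p = 0.779, unadjusted p = 0.0111), and was not called. No transcript cluster (0%) was called for that interaction.

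The mean levels of markers of 3 glial types were also higher in KO sham, with ranges that overlapped those of WT sham. The mean log2 signal over 8 of 8 astrocyte markers was 10.68 to 11.17 in KO sham, against 10.62 to 10.71 in WT sham. Over 9 oligodendrocyte markers it was 10.53 to 11.19 in KO sham, against 10.29 to 10.80 in WT sham, and over 7 microglia markers 7.35 to 7.53, against 7.29 to 7.43. The median log2 differences were 0.083 for astrocyte, 0.33 for oligodendrocyte and 0.11 for microglia markers, and Gfap, the astrocyte filament, was the only 1 of these markers called between those groups (1.36, limma adjusted p = 0.0263). Higher means in KO sham were not particular to these glia. Excitatory neuron markers had a mean of 11.38, against 11.28 in WT sham, and a median log2 difference of 0.10. Means were also higher for inhibitory neuron, oligodendrocyte precursor, monocyte and macrophage, mural and fibroblast, and striatum markers. They were lower for pan-neuronal, neutrophil, endothelial, choroid plexus, hippocampus and thalamus markers. KO sham replicate 31 had the highest Neat1 (8.41) and the highest astrocyte mean (11.17) of its group. That is 1 array of 7, and Neat1 was not tested against the marker means over the arrays. After injury, markers of monocytes and macrophages rose in both genotypes, 10 of 10 in each, with median log2 changes of 1.18 in knockout and 1.39 in wild type. Also higher were 3 of 8 astrocyte, 1 of 9 oligodendrocyte, 3 of 7 microglia, 4 of 8 endothelial and 5 of 8 neutrophil markers in knockout, where 1 astrocyte, 1 microglia and 1 endothelial marker were lower. In wild type 5 of 8 astrocyte, 6 of 9 oligodendrocyte, 4 of 7 microglia, 5 of 8 endothelial and 6 of 8 neutrophil markers were higher, and 1 astrocyte and 1 endothelial marker were lower. Of all transcript clusters 8.43% were higher and 8.27% lower in knockout, and 8.86% higher and 7.96% lower in wild type. The part of these lists in the Neat1 results was not tested.

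Of 21 measured proteins of paraspeckles, the bodies built on Neat1, most were not called after injury. In knockout 3 were higher and 3 lower, against 8.43% of all transcript clusters higher and 8.27% lower (median log2 change -0.031, against 0.012 for all transcript clusters), and in wild type 4 were higher and 3 lower, against 8.86% and 7.96% (median -0.015, against -0.023). Rbm3, a cold-inducible RNA-binding protein, rose by 1.05 on the log2 scale in knockout and 0.81 in wild type. Nono, a core paraspeckle protein, rose by 0.28 in knockout and 0.31 in wild type, and Ewsr1 rose by 0.15 in both. Arid1b and Zc3h6 fell in both genotypes, with log2 changes of -0.23 and -0.21 in knockout and of -0.18 for both in wild type. Cpsf7 fell by 0.14 in knockout, and in wild type Matr3 fell by 0.18 and Taf15 rose by 0.17. Between genotypes over both procedures, the core proteins Pspc1 and Sfpq had log2 differences of 0.20 (adjusted p = 0.0055) and -0.15 (adjusted p = 0.0155, limma). Neat1 and Malat1 lie together on chromosome 19. Of their nearest protein-coding neighbours Frmd8 rose after injury by 0.28 in knockout and 0.32 in wild type. Slc25a45 rose by 0.16 in knockout and 0.20 in wild type, and Ltbp3 was not called (0.0072 in knockout and 0.072 in wild type). Mean log2 signals were low, at 5.92 for Frmd8, 5.80 for Slc25a45 and 6.58 for Ltbp3. The highest single value of the background control rows was 7.53.

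Malat1 was not called after injury in either genotype. Its log2 signal was 18.94, 18.95 and 18.96 (lowest, median and highest) in KO CCI and 18.85, 18.90 and 18.96 in KO sham. In WT CCI it was 18.94, 18.96 and 19.06, against 18.86, 18.93 and 18.96 in WT sham. The 4 groups overlapped, although all 7 injured arrays lay above the sham median in each genotype. The log2 change was 0.038 in knockout (95% interval -0.029 to 0.10, adjusted p = 0.515) and 0.042 in wild type (-0.024 to 0.11, adjusted p = 0.449). These values lie close to the highest in the table, 19.93, and whether the scale limits changes at this level was not tested.

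The proteins of nuclear speckles, where Malat1 resides, were 3 higher and 1 lower of 17 after injury in knockout and 4 higher and none lower in wild type. Of all transcript clusters 8.43% were higher and 8.27% lower in knockout, and 8.86% higher and 7.96% lower in wild type. The SR proteins Srsf2 and Srsf6 rose in both, with log2 changes of 0.33 and 0.22 in knockout and of 0.28 and 0.31 in wild type. The splicing factor U2af2 rose by 0.20 in knockout and 0.22 in wild type, Srrm1 fell by 0.14 in knockout, and Prpf6 rose by 0.13 in wild type. In the genotype comparison 3 of 17 were higher after CCI, against 0.226% of all transcript clusters, and 2 of 17 after sham, against 0.508%. The speckle scaffold protein Srrm1 had 0.27 after CCI and 0.36 after sham, and the splicing kinase Clk1 had 0.28 after CCI and 0.26 after sham (log2 differences, knockout over wild type). The kinase Clk4 had 0.27 after CCI. Of 13 factors that cut or shape the Malat1 3′ end, none was called after injury in knockout, and the RNase P subunits Pop4 and Rpp30 rose in wild type, by 0.21 and 0.24. The shares called over all transcript clusters were 16.7% in knockout and 16.8% in wild type.

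The 3 host RNAs of the Dlk1-Dio3 domain lie on chromosome 12. Their transcript clusters also carry embedded small RNAs. The annotation lists 5 small nucleolar RNA genes with Rian, 9 microRNA genes with Mirg and 3 with Meg3, of which all 5, 5 and 2 lie inside the host gene by RefSeq, so host and small RNA signal in them cannot be told apart. Rian fell in both genotypes. Its log2 signal was 13.12, 13.24 and 13.40 (lowest, median and highest) in KO CCI, against 13.44, 13.51 and 13.64 in KO sham. In WT CCI it was 13.14, 13.28 and 13.42, against 13.48, 13.54 and 13.60 in WT sham. All 7 injured arrays lay below all sham arrays of their genotype. Rian fell by 0.27 in knockout (SE 0.049, adjusted p = 2.35e-04) and by 0.26 in wild type (SE 0.049, adjusted p = 2.85e-04), which is 1.20-fold in knockout and 1.19-fold in wild type.

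Mirg showed changes of the same sign with a wider spread. It was 8.54, 8.72 and 8.95 in KO CCI, against 8.83, 8.92 and 9.05 in KO sham, and 6 of 7 injured arrays lay below the lowest sham array. In WT CCI it was 8.54, 8.81 and 9.01, against 8.84, 8.97 and 9.05 in WT sham, with 5 of 7 below the lowest. Mirg fell by 0.21 in knockout (SE 0.064, adjusted p = 0.0247), and the change in wild type was -0.17 (SE 0.064, adjusted p = 0.0629). Both sides depended on single arrays in limma. Some of these were the extremes of their group, whose loss shifts a change by design. Replicate 11 was the highest of KO sham and replicate 42 the lowest of KO CCI. Replicate 26 was the lowest of WT sham and replicate 14 the highest of WT CCI. The knockout call was lost without KO sham replicate 11 (-0.18, adjusted p = 0.0716), KO CCI replicate 22 (-0.18, adjusted p = 0.0736) or KO CCI replicate 42 (-0.18, adjusted p = 0.0642). Wild type was called without WT sham replicate 26 (-0.19, adjusted p = 0.0495), WT CCI replicate 13 (-0.20, adjusted p = 0.0428), WT CCI replicate 14 (-0.21, adjusted p = 0.0205) or KO CCI replicate 21 (-0.17, adjusted p = 0.0466). Without the 7 arrays high in striatum or choroid plexus markers it was -0.18 in knockout (adjusted p = 0.065) and -0.31 in wild type (adjusted p = 0.0075).

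Meg3 was not called. It was 14.21, 14.42 and 14.58 in KO CCI, against 14.35, 14.48 and 14.63 in KO sham, and 14.38, 14.48 and 14.63 in WT CCI, against 14.46, 14.54 and 14.59 in WT sham. The groups overlapped widely. The log2 change was -0.11 in knockout (95% interval -0.23 to 0.0063) and -0.042 in wild type (-0.16 to 0.074). Under quantile normalization of the arrays, limma did call it, at -0.25 in knockout (adjusted p = 0.00226) and -0.22 in wild type (adjusted p = 0.00437).

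Over the 28 arrays, with the group means and sex removed, Rian and Mirg varied together (Pearson r = 0.711, permutation p = 0.00047, adjusted over 4 pairs 0.00188, and Spearman rho = 0.624, permutation p = 0.00211, adjusted 0.00844). Without the 2 arrays farthest from the Rian median r was 0.591, and within the runs of title numbers 1 to 24 and 25 to 42 it was 0.72 and 0.596. The 2 share a chromosome and an array signal, and hybridization and tissue content of an array touches both. Meg3 with Mirg (r = 0.47, permutation p = 0.0286, adjusted 0.0571, rho = 0.393) and Meg3 with Rian (r = 0.405, permutation p = 0.0691, adjusted 0.0921, rho = 0.309) did not pass. Nor did Malat1 with its neighbour Neat1 (r = 0.296, permutation p = 0.158, adjusted 0.158, rho = 0.314).

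**Figure D2:**
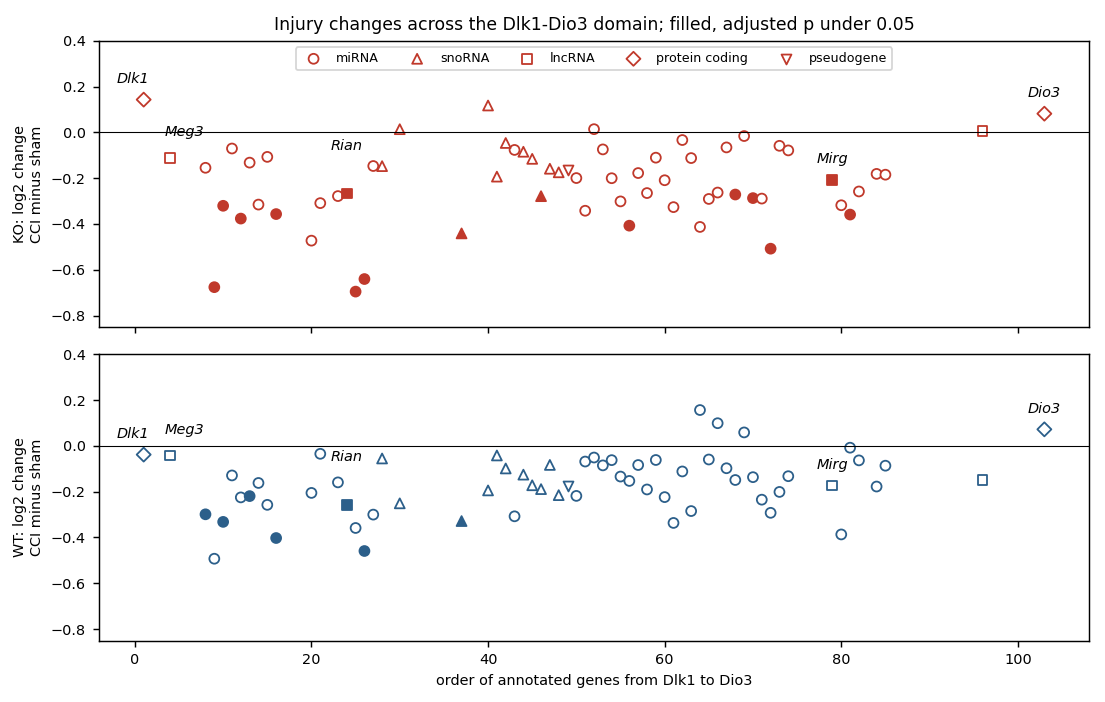
Injury change (log2, CCI minus sham, vertical axis) of the 64 measured genes of the Dlk1-Dio3 domain in their order along the chromosome (horizontal axis), knockout above and wild type below, with filled marks for an adjusted p under 0.05. In knockout 58 of 64 lie below 0 and in wild type 60 of 64, while the protein-coding ends Dlk1 and Dio3 are not called. Their mean log2 signals were 5.48 and 3.96, below the highest single value of the background control rows (7.53), so the lack of a call says little about them.

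Between Dlk1 and Dio3, RefSeq lists 103 genes, of which 64, Meg3, Rian and Mirg among them, had a transcript cluster with their symbol. In knockout 15 fell and none rose, with a median log2 change of -0.20 and 58 of 64 below 0. In wild type 7 fell and none rose, with a median of -0.16 and 60 of 64 below 0. Of all transcript clusters 8.27% were called lower in knockout and 7.96% in wild type, and 46% lay below 0 in knockout and 57.5% in wild type. Among microRNA precursors, 11 of 46 inside the domain fell in knockout and 5 of 46 in wild type, whereas outside it 1.48% of 881 were called lower in knockout and 2.38% in wild type. Signal of a precursor and of the host transcript around it cannot be told apart here. Signal levels of the small RNA genes are not set against the background control rows here, so some calls may rest on low signal.

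The precursors that fell most in knockout were Mir341 (-0.70, SE 0.15) and Mir1188 (-0.64, SE 0.11), both inside Rian, with Mir493 (-0.68, SE 0.19) and Mir487b (-0.51, SE 0.15). In wild type Mir1188 fell by 0.46 (SE 0.11), Mir431 fell by 0.40 (SE 0.12), Mir337 fell by 0.33 (SE 0.087) and Mir673 fell by 0.30 (SE 0.091). The first 3 of these were called in both genotypes, Mir431 at -0.36 and Mir337 at -0.32 in knockout. Mir154, inside Mirg, fell by 0.36 in knockout, against -0.0082 in wild type, and after sham it was higher in knockout than in wild type (log2 difference 0.37, limma adjusted p = 0.03). No interaction was called for it. The small nucleolar RNA DQ267102, inside Rian, fell by 0.44 in knockout and by 0.33 in wild type. Whether mature microRNAs moved was not measured. The mature RNAs of the 3 precursors called in both genotypes are shown because these are the microRNA genes called in both, written 5′ to 3′ with the seed (bases 2 to 8, which pairs with targets) in capitals, from RefSeq on GRCm38.p6. No 2 of them share a seed.
mmu-miR-1188-5p: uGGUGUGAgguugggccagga
mmu-miR-1188-3p: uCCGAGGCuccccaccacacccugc
mmu-miR-431-5p: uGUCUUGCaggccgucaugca
mmu-miR-431-3p: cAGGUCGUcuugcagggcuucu
mmu-miR-337-5p: cGGCGUCAugcaggaguugauu
mmu-miR-337-3p: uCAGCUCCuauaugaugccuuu

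The promoters set the 2 that fell in both genotypes, Rian and Miat, against Malat1 and Meg3, not called in either. RefSeq windows were found for 5 of the 8 (Malat1, Meg3, Miat, Rian and Mirg). Each window runs from 250 bases before to 50 bases after the annotated start, on GRCm38.p6, and is written 5′ to 3′ on the strand of the gene. Capitals mark matches on either strand to 9 motifs, which were searched as letters with N for any base. The core of the cAMP response element was TGACG. The AP-1 element was searched as TGANTCA and the STAT element as TTCNNNGAA, and the NF-kappa B element is given by name alone. The core of the hypoxia response element was ACGTG. The E-box was searched with the letters CACGTG and so holds the hypoxia core, which can also overlap the cAMP core. The CCAAT box has its letters in its name. The GC box was searched with the letters GGGCGG. The TATA element was searched with the letters TATAAA.
Rian promoter, chr12:109603695-109603994 (+): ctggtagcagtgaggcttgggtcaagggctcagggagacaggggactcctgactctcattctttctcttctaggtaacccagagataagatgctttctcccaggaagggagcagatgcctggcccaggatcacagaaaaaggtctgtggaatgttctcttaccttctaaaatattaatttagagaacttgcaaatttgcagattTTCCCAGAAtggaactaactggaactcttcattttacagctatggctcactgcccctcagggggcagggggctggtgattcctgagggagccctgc
Miat promoter, chr5:112228899-112229198 (-): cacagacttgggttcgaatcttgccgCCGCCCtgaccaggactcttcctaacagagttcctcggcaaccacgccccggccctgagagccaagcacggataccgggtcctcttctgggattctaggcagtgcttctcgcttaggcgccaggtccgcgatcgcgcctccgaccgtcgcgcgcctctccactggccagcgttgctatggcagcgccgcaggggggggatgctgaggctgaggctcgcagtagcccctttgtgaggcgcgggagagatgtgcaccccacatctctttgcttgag
Malat1 promoter, chr19:5802623-5802922 (-): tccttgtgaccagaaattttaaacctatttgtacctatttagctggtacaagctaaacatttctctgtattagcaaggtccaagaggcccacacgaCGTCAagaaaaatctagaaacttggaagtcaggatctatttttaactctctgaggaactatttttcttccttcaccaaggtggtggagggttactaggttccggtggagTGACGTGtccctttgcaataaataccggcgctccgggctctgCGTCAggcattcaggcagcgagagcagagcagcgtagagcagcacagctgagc
Meg3 promoter, chr12:109540746-109541045 (+): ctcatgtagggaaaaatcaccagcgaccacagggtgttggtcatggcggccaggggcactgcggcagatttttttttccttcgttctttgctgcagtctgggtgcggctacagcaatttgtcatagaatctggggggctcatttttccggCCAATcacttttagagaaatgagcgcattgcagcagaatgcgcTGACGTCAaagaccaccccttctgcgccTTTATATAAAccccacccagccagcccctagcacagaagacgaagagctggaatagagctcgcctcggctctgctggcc

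Rian held 1 STAT element 46 bases before its start, which 8.3% of 32851 windows hold, and Miat 1 GC box (35.7%). Malat1 held 3 cAMP response cores (20.8% of windows hold 1 or more) and 1 hypoxia core (19.6%). Meg3 held a CCAAT box 100 bases before its start (37.4%), a pair of cAMP response cores that overlap as a palindrome and overlapping TATA elements 29 and 25 bases before the start (13.6%). These are matches of letters and no evidence of a factor there.

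Miat fell in both genotypes. Its log2 signal was 8.81, 9.21 and 9.31 in KO CCI, against 9.16, 9.50 and 9.72 in KO sham, where 3 of 7 injured arrays lay below the lowest sham array. In WT CCI it was 8.94, 9.17 and 9.31, against 9.30, 9.41 and 9.52 in WT sham, with 6 of 7 below the lowest. Miat fell by 0.31 in knockout (SE 0.077, adjusted p = 0.00479) and by 0.24 in wild type (SE 0.076, adjusted p = 0.0274), which is 1.24-fold in knockout and 1.18-fold in wild type. In limma the wild type call was lost without WT sham replicate 25 (-0.21, adjusted p = 0.0689) or WT CCI replicate 16 (-0.20, adjusted p = 0.0749), and without the 7 arrays named above (-0.13, adjusted p = 0.387). The knockout call was kept without those 7 (-0.23, limma adjusted p = 0.046). Most of the 7 were WT CCI arrays and none was KO sham. For Miat they include the highest WT sham array (replicate 25) and the lowest of WT CCI (replicate 16) and KO CCI (replicate 40). Leaving out such extremes narrows a fall by design, so wild type and knockout cannot be set side by side here. In knockout the Miat change was -0.12 (limma adjusted p = 0.488) in title numbers 1 to 24 and -0.58 (limma adjusted p = 0.016) in 25 to 42. None of the nearest protein-coding neighbours of Miat was called. Mean log2 signals were 13.01 for Pitpnb, 4.52 for Cryba4, 6.51 for Mn1 and 7.42 for Crybb1. All but Pitpnb lay below the highest single background value of 7.53, so their lack of a call says little.

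Many neuronal markers also fell after injury. Of 11 excitatory neuron markers, 8 fell in knockout (median log2 change -0.50) and 7 in wild type (median -0.38), and 6 of 10 inhibitory neuron markers fell in each. Pan-neuronal markers moved less. Of 9, 3 fell in each genotype and 1 rose in wild type, with medians of -0.20 in knockout and -0.10 in wild type. Over all transcript clusters 8.27% were called lower in knockout and 7.96% in wild type. The mean of the excitatory markers was 10.79 to 11.11 in KO CCI, against 11.24 to 11.48 in KO sham, and 10.80 to 11.09 in WT CCI, against 11.21 to 11.32 in WT sham. Miat was lowest on KO CCI replicate 40 (8.81) and WT CCI replicate 16 (8.94), whose striatum marker means were 10.07 and 9.55 against 7.04 to 10.07 over KO CCI and 6.99 to 9.75 over WT CCI. In bulk tissue, fewer cells of a type and less RNA per cell cannot be told apart, and the part of these markers in the falls of Rian, Mirg and Miat was not tested.

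Pvt1 lay below the highest single value of the background control rows (7.53) on every array, and above their median row mean of 3.62. It was 6.69, 6.82 and 6.90 in KO CCI, against 6.66, 6.71 and 6.77 in KO sham, and 5 of 7 injured arrays lay above the highest sham array. In WT CCI it was 6.70, 6.82 and 6.97, against 6.52, 6.63 and 6.69 in WT sham, with no overlap. Pvt1 rose 1.15-fold in wild type (log2 change 0.20, SE 0.044, adjusted p = 0.00179), and the change in knockout was 0.094 (SE 0.044, adjusted p = 0.166). The difference between the 2 changes was -0.10 (SE 0.062, unadjusted p = 0.114, adjusted p = 0.827 in limma). Myc, the neighbour of Pvt1 on chromosome 15, rose by 0.60 in knockout and by 0.62 in wild type. Its mean log2 signal of 6.56 also lay below 7.53. The other neighbours, A1bg, Gsdmc and Gsdmc2, were not called. Their mean log2 signals were 4.17, 4.27 and 4.33, so the lack of a call says little about them.

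Rmst was not called after injury, at 8.11, 8.29 and 8.48 in KO CCI, 8.14, 8.36 and 8.51 in KO sham, 7.82, 8.15 and 8.30 in WT CCI, and 8.08, 8.22 and 8.37 in WT sham. Above the highest wild type array of the same procedure lay 3 of 7 knockout arrays, after CCI and after sham. The genotype difference was 0.16 after CCI (SE 0.065, unadjusted p = 0.0235) and 0.13 after sham (SE 0.065, unadjusted p = 0.0651), and 0.14 over both (SE 0.046, limma unadjusted p = 0.005, adjusted p = 0.111). Of its neighbours on chromosome 10, Nedd1 and Tmpo rose after injury by 0.38 and 0.39 in knockout and by 0.47 and 0.50 in wild type. Nedd1 had a mean log2 signal of 6.70, below the highest single background value of 7.53. Cfap54, another neighbour, was not called after injury and was 0.22 higher in knockout over both procedures (limma adjusted p = 0.00558).

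**Figure D3:**
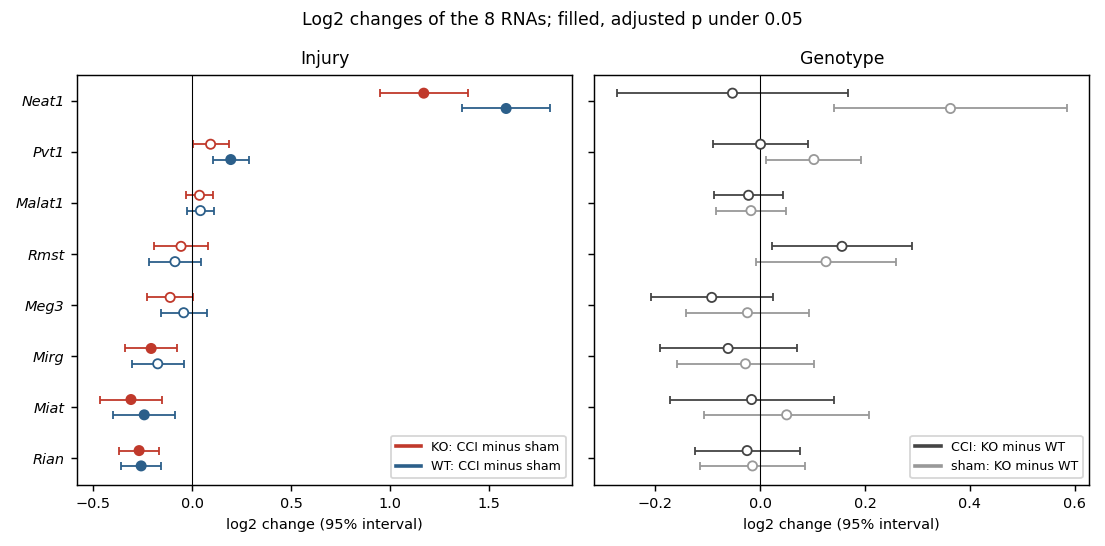
Log2 changes with 95% intervals (horizontal axis) of the 8 RNAs, on the left CCI minus sham in knockout (upper mark) and wild type (lower mark), on the right knockout minus wild type after CCI (upper) and sham (lower), filled where the adjusted p was under 0.05. Neat1 stands at 1.17 and 1.59 on the left, and no mark on the right is filled.

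Genotype thus had 0 of 8 called after CCI, after sham and over both procedures, where limma called 0.653%, 1.28% and 3.16% of all transcript clusters. Besides Neat1 after sham and Rmst, Pvt1 after sham had a difference of 0.10 (SE 0.044, limma adjusted p = 0.357, unadjusted p = 0.0282). Neat1 over both procedures had 0.16 (SE 0.076, limma adjusted p = 0.398, unadjusted p = 0.0519). The other differences lay between -0.092 (Meg3 after CCI) and 0.052 (Pvt1 over both). Sex, with 0.487% called, gave 0 of 8. Miat (0.079, SE 0.054) and Rmst (0.066, SE 0.046) had the largest differences, female over male.

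The genes most like each member were taken by Pearson r across the 28 arrays, after group means and sex were removed, over 9160 genes with a mean log2 signal of at least 7. For Neat1 the 3 closest were Cd9 (r = 0.797), Lpcat3 (0.795) and Rpl28-ps1 (0.77). For Rian they were Ric1 (0.788), Pan2 (0.723) and Spata7 (0.717), and for Miat Adam11 (0.846), Fxyd7 (0.833) and Hacd2 (0.824). Mirg ran with Mios (0.797), Mccc2 (0.789) and Tspoap1 (0.762), and Meg3 with Rnf123 (0.831), Apba2 (0.802) and Syt3 (0.799). Malat1 ran with the mitochondrial genes ND2 (0.671) and COX1 (0.657) and with Defb46 (0.638), Rmst with Atg10 (0.772), Ccdc66 (0.706) and Dapk1 (0.654), and Pvt1 with Faf1 (0.843), Sh2b3 (0.825) and Luzp1 (0.802). The arrays share hybridization and tissue content, and these are highest values among many, given as a description.

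Among 40 other measured long noncoding RNAs, 4 rose and 7 fell in knockout and 4 rose and 8 fell in wild type, with median log2 changes of -0.014 in knockout and -0.043 in wild type. Over all transcript clusters 8.43% rose and 8.27% fell in knockout (median 0.012), and 8.86% rose and 7.96% fell in wild type (median -0.023). Rmrp, the RNA of the RNase MRP enzyme, rose by 0.55 in knockout and 0.90 in wild type, and Morrbid, which regulates myeloid cell survival, rose by 0.31 in knockout and 0.24 in wild type. Pantr1 fell by 0.50 in knockout and by 0.42 in wild type, Peg13, an imprinted RNA, fell by 0.49 in knockout and by 0.43 in wild type, and Dlx1as fell by 0.36 in knockout and by 0.48 in wild type. Airn rose by 0.24 in knockout and by 0.27 in wild type, and Lockd rose by 0.25 in knockout and by 0.21 in wild type. Mir124-2hg fell by 0.34 in knockout and by 0.25 in wild type, and A330008L17Rik fell by 0.31 in wild type. Neat1 changed more than any of the 40 in both genotypes.

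**Figure D4:**
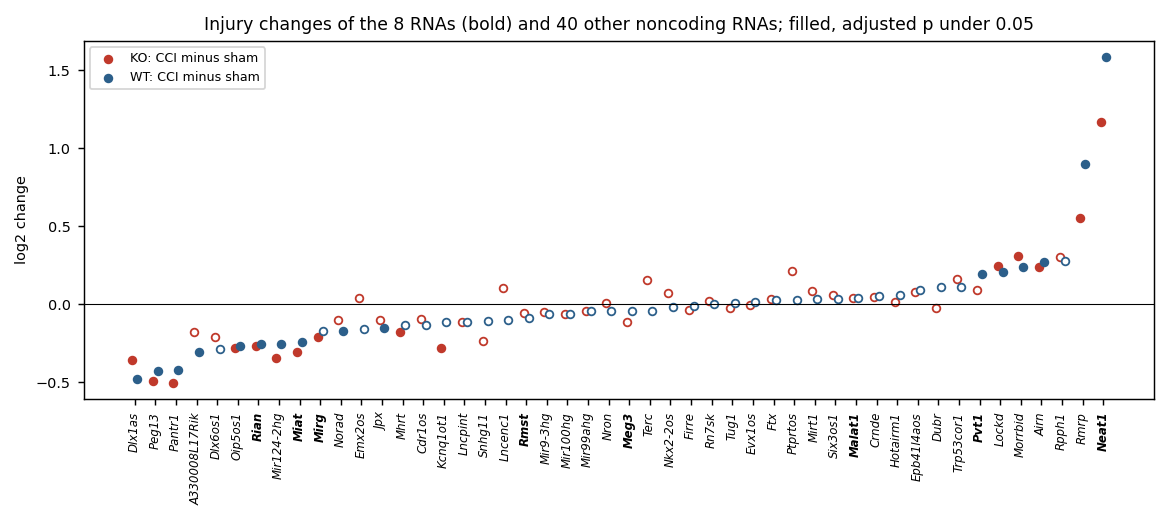
Injury change (log2, vertical axis) of the 8 RNAs (bold) and 40 others, ordered by the wild type value, red for knockout and blue for wild type, filled where the adjusted p was under 0.05. Neat1 stands highest at the right and Rian and Miat among the fallen at the left.

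**Figure D5:**
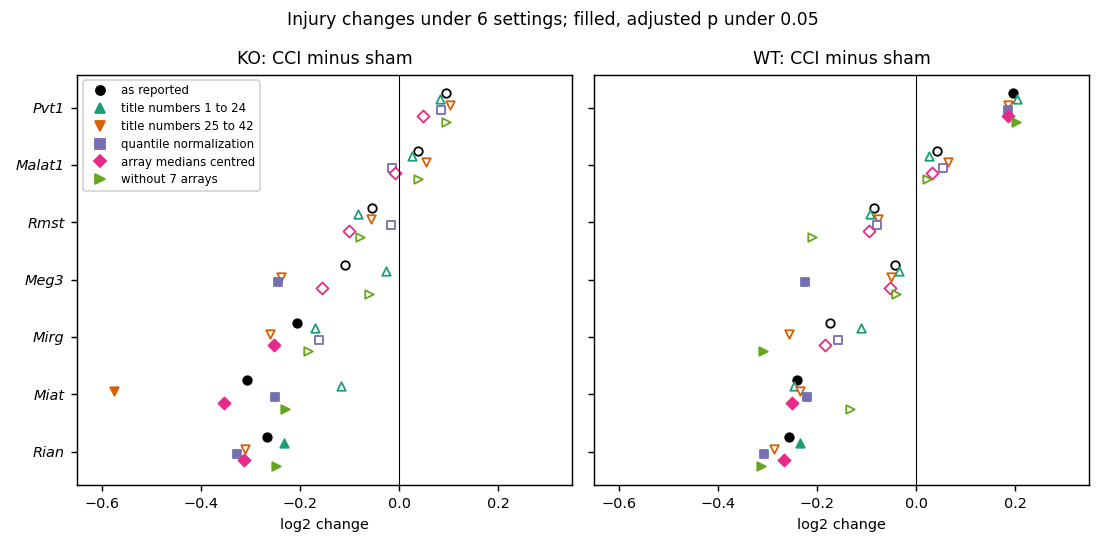
Injury change (log2, horizontal axis) of 7 members without Neat1 under 6 settings, knockout left and wild type right, filled where the adjusted p was under 0.05. Rian lies below 0 under each of the 6, and Meg3 is filled only under quantile normalization.

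Within the runs of title numbers 1 to 24 and 25 to 42, Neat1 was called in both runs, at 1.23 and 1.11 in knockout and 1.52 and 1.68 in wild type. Rian was -0.23 in the first run for each genotype (adjusted p = 0.0328 in knockout and 0.0386 in wild type), and -0.31 in knockout and -0.29 in wild type in the second (limma adjusted p = 0.0802 in knockout and 0.0675 in wild type). Its call was kept in each fit that left out 1 array, as were those of Neat1 in both genotypes, Miat in knockout and Pvt1 in wild type. Pvt1 in wild type was 0.20 in the first run (adjusted p = 0.0595) and 0.19 in the second (adjusted p = 0.248). Mirg in knockout was not called in either run, at -0.17 in the first (adjusted p = 0.27) and -0.26 in the second (adjusted p = 0.186). Miat in wild type was -0.25 in the first run (adjusted p = 0.0971) and -0.23 in the second (adjusted p = 0.232).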

How the data were processed

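Total RNA (100 ng) from cortical tissue was labelled with biotin and hybridized to MTA 1.0 arrays, per the labels' protocols. The deposited table holds log2 signal per transcript cluster for 28 arrays, as read from its values (2.17 to 19.93). The authors' normalization and software are not given in the sources used here, and no further normalization was applied. Array medians were 5.79 to 5.90. Of 72688 transcript clusters, 6732 controls were left out and 65956 tested. Of these, 31438 carried 1 gene symbol after updating through RefSeq (GRCm38.p6), 1312 several and 33206 none. Among those with a listed gene, 103 were left unnamed because chromosomes differed.

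The model, fitted by lmFit and eBayes of limma 3.58.1 (R 4.3.3), held group means and a sex term, and gave 95% intervals. P-values were adjusted by the Benjamini-Hochberg method. On simulated data with 200 changed of 65956 transcript clusters, a log2 change of 0.5 was recovered in 86% for the wild type injury contrast and 0.25 in 38%. The sham genotype contrast gave 86% and 28%, and the interaction 62% and 8%. Correlations used residuals and 100000 permutations (scipy 1.17.1). Figures used matplotlib 3.10.9 in Python 3.11.15 with pandas 2.3.3.

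The members and lists were chosen with earlier results of these data known. The text names the members, up to 4 called genes per direction by size in the lists described gene by gene, the 3 genes most like each member, and Rbm5. Other named genes (the neighbours of members and DQ267102) were chosen after their values were seen. Lists of neighbours were computed from RefSeq gene order after the files were read. Alternatives were no sex term, the title-number run as a covariate or alone, only the arrays compared, brightness and annotation filters, quantile normalization, median centring, a variance trend, array weights, a threshold of 0.01, leaving out 7 arrays and leaving out each array. Nothing says whether mice shared litters. P-values measure the spread between these arrays, whose number limits the precision.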

Additional observations from a re-analysis of the deposited data

Results flagged for a closer look

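Malat1 on WT CCI replicate 35 stood apart from the other 6 arrays of its group at a log2 signal of 19.06, with the nearest at 18.96. That gap was 0.849 of the range of the group, above Dixon's 95% critical value for 7 arrays. It was the 1 array so marked in 32 groups of values, the 8 RNAs in 4 groups each, where chance marks about 1 in 20. Striatum and choroid plexus markers were also high on this array, and their part was not tested.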

How the results depend on the processing

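The injury calls of Neat1 were kept under every alternative run, and those of Rian under all except the second title-number run alone, with fewer arrays. Most other calls that did not hold are given with their results. Meg3 was called under quantile normalization, and Mirg in knockout was not (-0.16, limma adjusted p = 0.0706). Mirg in wild type was called among transcript clusters brighter than the median (adjusted p = 0.0358) or transcript clusters with 1 symbol (adjusted p = 0.0402), where fewer were tested. At a threshold of 0.01, Miat in wild type and Mirg in knockout were lost. Why calls moved between settings was not tested, also where fewer arrays or transcript clusters were used.

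Members called after injury numbered 2 in each genotype in the first title-number run alone, and 2 in knockout and 1 in wild type in the second. All called transcript clusters numbered 5900 in wild type in the first run, and 2567 in knockout and 5217 in wild type in the second. At 0.01 they numbered 7060 in knockout and 7268 in wild type. Centring array medians gave 4021 higher and 7576 lower in knockout, against 5560 and 5457 as reported. For genotype after CCI it gave 89 higher and 331 lower, against 149 and 282, and for genotype after sham 341 and 345, against 335 and 512. Genotype after CCI had 125 called in the first run, 15 in the second, 131 with only the arrays compared, 181 at 0.01 and 187 without the 7 arrays. Genotype after sham had 472, 5, 1279 with array weights and 278 at 0.01, and genotype over both had 872, 74, 1006 at 0.01 and 961 without the 7. The interaction had 1 called with 1-symbol transcript clusters, and 0 as reported with 4097 at an unadjusted limma p under 0.05. Sex had 17, 13, 23 among the brighter ones, 94 with 1 symbol, 38 at 0.01 and 25 without the 7.

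Leaving out each array gave 438 to 921 calls for genotype after sham, with 0 to 1 members, and 183 to 355 for sex. Uncalled values changed sign as follows (log2). Without single arrays, genotype after CCI ran from -0.059 to 0.033 for Miat and -0.017 to 0.026 for Pvt1, and Meg3 after sham from -0.049 to 0.0015. Miat over both ran from -0.0065 to 0.040. Interactions ran from -0.017 to 0.012 for Malat1, -0.038 to 0.012 for Rian, -0.075 to 0.0003 for Mirg and -0.014 to 0.063 for Rmst. Sex ran from -0.0081 to 0.0053 for Malat1, -0.029 to 0.0095 for Meg3, -0.046 to 0.016 for Neat1 and -0.022 to 0.0039 for Rian.

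Under quantile normalization Malat1 was -0.015 for injury in knockout, 0.034 for genotype after CCI, 0.10 after sham and 0.069 over both. Meg3 was 0.014 after sham and 0.0039 over both, Rian 0.017 after CCI, 0.037 after sham and 0.027 over both, and Miat 0.0023 after CCI. Under median centring Malat1 was -0.0080 for injury in knockout and 0.0001 for sex, Rian 0.0010 for genotype after sham, Pvt1 -0.019 after CCI and Rmst -0.0052 for the interaction. In the first run Neat1 was 0.071, Miat 0.097 and Pvt1 -0.0075 for genotype after CCI, and Miat -0.032 after sham. There the interaction was 0.0002 for Malat1, 0.0094 for Meg3, 0.13 for Miat and 0.0005 for Rian, and sex 0.030 for Neat1, 0.0084 for Rian and -0.0037 for Rmst. In the second run Meg3 was 0.032 and Rian 0.022 for genotype after sham, Rian 0.011 over both, and Meg3 0.040 and Pvt1 0.0006 for sex. Array weights gave Pvt1 -0.0035 after CCI, Malat1 0.0085 for the interaction and Neat1 0.0061 for sex. Without the 7 arrays Rian was 0.041, Mirg 0.10 and Pvt1 -0.019 for genotype after CCI, Rian 0.0082 and Mirg 0.038 over both, and the interaction 0.016 for Malat1, 0.066 for Rian and 0.12 for Mirg.

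No paired analysis was possible because the replicate numbers differ in every group. The next brightest transcript cluster was not run, since each member has 1. Fits within a title-number run of the correlations were chosen after seeing the data. Scaling moved the median of all transcript clusters by less than 0.1. This does not bound the shift of a single member. Under quantile normalization Meg3 after injury in wild type moved from -0.042 to -0.22. At a log2 change of 0.25 the model recovered 38% in the simulation of injury in wild type. That simulation changed 200 transcript clusters, whereas 11094 were called in the data, which sets a different cut-off. Changes the size of those of Miat, Rian and Mirg could be missed, but the simulation does not tell how often.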

Other observations

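Imprinted genes outside the Dlk1-Dio3 domain also included members that fell after injury. Of 25 measured, 3 rose and 8 fell in knockout and 2 rose and 8 fell in wild type. Of all transcript clusters 8.43% rose and 8.27% fell in knockout, and 8.86% rose and 7.96% fell in wild type. Igf2, a growth factor, fell by 0.78 in knockout and by 0.83 in wild type on the log2 scale, and Mest fell by 0.40 in knockout and by 0.55 in wild type. Peg3 fell by 0.30 in knockout and by 0.28 in wild type, and Impact fell by 0.29 in both. Dcn, a matrix proteoglycan, rose by 1.21 in knockout and by 1.04 in wild type, Airn rose by 0.24 in knockout and by 0.27 in wild type, and Phlda2 rose by 0.23 in knockout. Peg13, given with the noncoding RNAs, is 1 of the 25. The median log2 change of the 25 was -0.044 in knockout and -0.066 in wild type.

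Other long noncoding RNAs differed between genotypes over both procedures where no member did. Of 40, 2 were higher in knockout, Dlx6os1 (log2 difference 0.27, limma adjusted p = 0.0413) and Ftx (0.19, adjusted p = 0.00248). Lower in knockout than in wild type were Oip5os1, by 0.17 (limma adjusted p = 0.04), and Norad, by 0.11 (limma adjusted p = 0.0453). The call rate over all transcript clusters was 3.16%.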
